A study of Homo sapiens with 6 samples.

Results

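The kallikrein-related peptidases KLK5 to KLK14 were examined in CAL-27, an established cell line from a human tongue squamous cell carcinoma, after knockdown of the spliced form of XBP-1. Their probes were found on the array by RefSeq accession. All 10 genes had at least 1 probe, with 12 probes in all, among 19740 genes named by 25771 of the 34127 probes. In the shXBP-1s group (n = 3) the cells had been stably transduced with an shRNA that targets XBP-1s, and in the shCtrl group (n = 3) with a negative control shRNA. Both groups were the same line and no other treatment was labelled. Whether each shRNA line was a pool or a single clone, and whether the 3 samples of a group were separate cultures, is not given in the sources used here, so the p-values measure the spread between these samples, which may be technical.

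Kallikrein-related peptidases are secreted serine proteases encoded side by side on chromosome 19. They are made as inactive proenzymes that other proteases, often another kallikrein, cut to activate, and inhibitors such as LEKTI restrain them. In stratified epithelia such as skin and oral mucosa they cleave the desmosomal proteins that hold surface cells together, and several of them also activate the receptor PAR2. XBP-1s is the transcription factor made when IRE1α splices XBP-1 mRNA in response to unfolded protein in the endoplasmic reticulum.

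Total RNA was labelled with Cy3 and hybridised to a 1-colour Agilent array, 1 array per sample, although the labels describe a NimbleGen labelling procedure. Between 82.1% and 84.8% of the spots of an array were well above background and 0 were saturated. Each level below is a log2 signal relative to the 75th percentile of its own array, so 0 is that percentile and each unit is a 2-fold step. A probe was tested where all 3 arrays of at least 1 group were well above background, which held for 27624 probes. The XBP1 probe fell by 2.39 on the log2 scale (adjusted p = 2.81e-07 from limma), from 1.85 to 1.88 on the shCtrl arrays to −0.54 to −0.50 on the shXBP-1s arrays. Whether that probe reads the spliced form, the unspliced form or both is not given in the sources used here. Arrays that share a scan identifier in their headers are taken here as a slide, numbered by scan date. By that inference the shCtrl replicates 2 and 3 were on slide 1, and shCtrl replicate 1 was on slide 2 with all shXBP-1s arrays. Precision is limited by the 3 arrays in each group.

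Among the 8 of these kallikreins that could be tested, KLK9 had the largest change, a rise of 1.70 on the log2 scale, or 3.24-fold, though under one alternative, normexp background correction with the 75th percentile, it read −0.05. KLK8, its neighbour on the chromosome, rose by less than 2-fold, and KLK11 and KLK6 rose slightly. KLK5 and KLK7, the pair best known from skin shedding, and KLK10 and KLK12 did not pass the test. KLK13 and KLK14 were not well above background on enough arrays to be tested. A gene was called where limma gave an adjusted p below 0.05 and the change reached 2-fold or more. Among the 8 genes tested, 1 was called higher (KLK9) and 0 lower, where 2.30% of all 16821 tested genes were called higher and 2.88% lower. With no minimum fold, 4 of the 8 rose (KLK6, KLK8, KLK9 and KLK11) and 0 fell, against 18.9% and 27.5% of all tested genes. At an unadjusted p below 0.05, 5 rose and 0 fell by limma and by the methods' t-test alike, KLK12 being the addition by limma. The share of all tested genes at that looser cut is not given here or below. Such unadjusted counts therefore have no background to be read against. These counts take the brightest tested probe of each gene. Over the 27624 tested probes the called shares were 2.29% higher and 2.61% lower, and without a minimum fold 18.4% higher and 23.3% lower. RNA from these cultures does not tell a change in every cell from a change in the share of cells that carry a transcript.

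The median log2 fold change of the 8 genes, shXBP-1s minus shCtrl, was 0.32, beside −0.04 over all tested genes. It was positive for 7 of the 8 genes, but under normexp background correction with the 75th percentile scaling it was positive for only 2 of 8. That setting also moved the median over all probes tested, to −0.41, and 6 of the 8 kallikreins lay above it. Under quantile normalization, in the deposited log2 table and under normexp with quantile normalization, 7 of 8 were positive. The deposited table is close to a quantile-normalized one, so the first 2 of these are not separate checks. Of the 9 tested probes, the 3 shXBP-1s arrays all lay above the 3 shCtrl arrays for 5 and all below them for 1, where 23.9% of all tested probes lay wholly above and 28.5% wholly below. For a single probe, 3 arrays against 3 allow no 2-sided exact permutation p below 0.1.

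**Figure D1:**
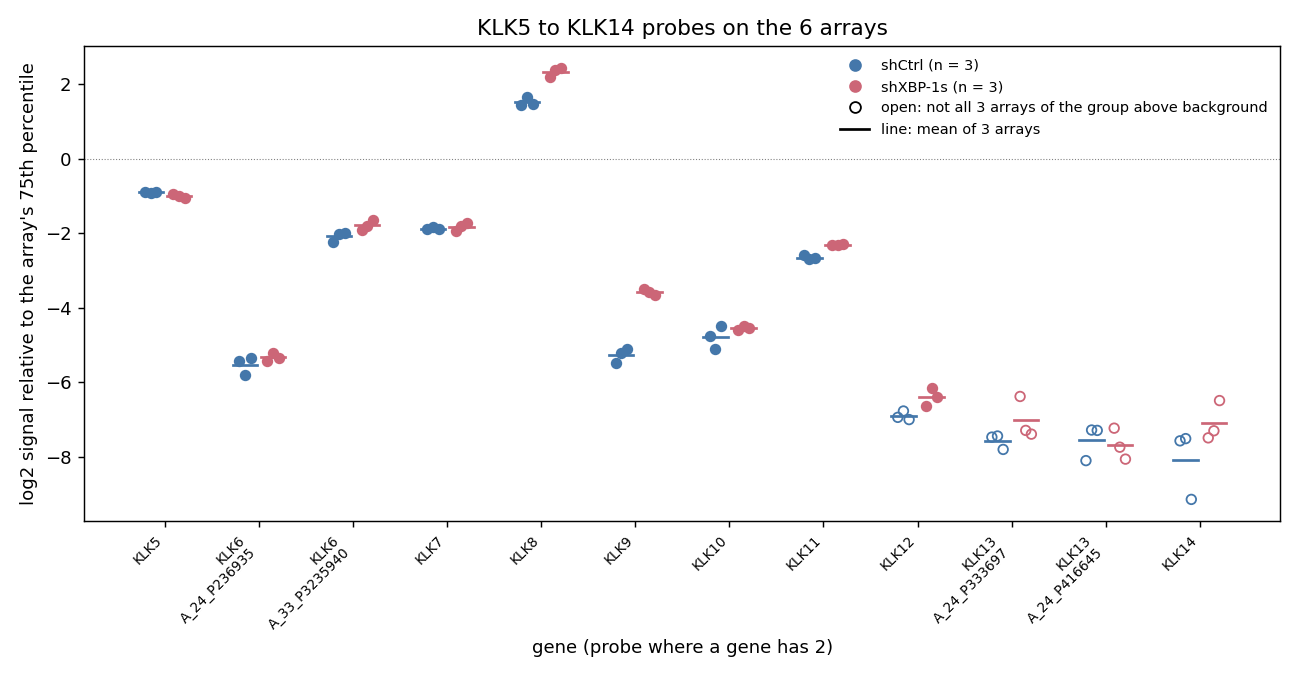
Log2 signal relative to the array's 75th percentile (vertical axis) for each of the 12 probes of KLK5 to KLK14 (horizontal axis), 1 point per array, with shCtrl in blue (n = 3), shXBP-1s in red (n = 3) and a line at each group's mean. Among the 9 tested probes, KLK9 and KLK8 show the widest gaps between the groups, at 1.70 and 0.81 log2 units, though the KLK9 gap reads −0.05 under normexp with the 75th percentile, and open points mark groups in which not all 3 arrays were above background. In that normexp setting the median of all tested probes was −0.41. Heights of different probes are not compared.

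KLK9 encodes a kallikrein with chymotrypsin-like preference and is among the less studied of the family. Its probe (A_33_P3398195, matched to NM_012315) was at −5.47, −5.21 and −5.11 on shCtrl replicates 1, 2 and 3. On shXBP-1s replicates 1, 2 and 3 it was at −3.49, −3.57 and −3.65. All 3 shXBP-1s arrays lay above all shCtrl arrays, by more than the range within either group. The mean rose from −5.26 ± 0.19 to −3.57 ± 0.08 (SD, n = 3), a log2 fold change of 1.70 (SE 0.12, 95% interval 1.42 to 1.97, adjusted p = 2.01e-05 from limma), or 3.24-fold. Of the 27624 tested probes, 155 had a higher log2 fold change. The signal was low, 15.5 to 21.8 units on the shCtrl arrays and 63.1 to 87.4 on the shXBP-1s arrays, yet well above background on all 6. Within slide 2 alone, the shXBP-1s mean lay 1.90 log2 units above the single shCtrl array. The rise was not kept under normexp with the 75th percentile. Under normexp, which replaced the processed signal by median spot signals and added 50 as an offset, it was 0.60 with quantile normalization (adjusted p = 1.72e-05 from limma, below 2-fold) and −0.05 with the 75th percentile (adjusted p = 0.943 from limma). The median of all tested probes in that last setting was −0.41.

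KLK8, or neuropsin, is a trypsin-like kallikrein known from the hippocampus and from the shedding of skin cells. Its probe (A_23_P369343, matched to NM_144505) was at 1.44, 1.66 and 1.45 on the shCtrl arrays. On the shXBP-1s arrays it was at 2.18, 2.37 and 2.44. The groups did not overlap. The mean rose from 1.52 ± 0.12 to 2.33 ± 0.14 (SD, n = 3), a log2 fold change of 0.81 (SE 0.08, 95% interval 0.62 to 1.01, adjusted p = 1.57e-04 from limma), or 1.76-fold. The probe therefore passed the test and missed the 2-fold limit, which the interval reached. With signals of 1867.2 to 2398.6 on shCtrl arrays and 4302.0 to 4608.3 on shXBP-1s arrays it was far from background, and over 19 alternative settings its log2 fold change stayed between 0.76 and 0.89, both normexp settings included. Several of the 19 change only the test, the probe filter or the rule for a call, and cannot move this value. Of all tested probes, 1133 had a higher log2 fold change than KLK8.

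KLK11 encodes a trypsin-like kallikrein of secretory and stratified epithelia. Its probe (A_23_P101505, matched to NM_144947) was at −2.60, −2.70 and −2.67 on the shCtrl arrays and at −2.33, −2.31 and −2.30 on the shXBP-1s arrays. The shift was small but exceeded the spread within both groups. The log2 fold change was 0.34 (SE 0.06, 95% interval 0.20 to 0.48, adjusted p = 0.00223 from limma), or 1.27-fold. It read −0.11 under normexp with the 75th percentile, where the median of all tested probes was −0.41. Leaving out any 1 array gave 0.32 to 0.37.

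KLK6, a trypsin-like protease of brain and epithelia, was read by 2 probes matched to the same transcript, NM_001012964. The brighter one (A_33_P3235940) was at −2.23, −2.03 and −2.0 on the shCtrl arrays and at −1.92, −1.80 and −1.66 on the shXBP-1s arrays, close together but without overlap. Its log2 fold change was 0.29 (SE 0.09, 95% interval 0.08 to 0.50, adjusted p = 0.032 from limma). This result was near its threshold, and it was 0.04 under normexp with the 75th percentile (adjusted p = 0.903 from limma). The adjusted p from limma was 0.0557 without the variance trend, 0.0648 without shCtrl replicate 1, 0.0504 without shCtrl replicate 2, 0.0878 without shXBP-1s replicate 2 and 0.096 without shXBP-1s replicate 3. The dimmer probe (A_24_P236935) gave 0.20 (95% interval −0.16 to 0.57, adjusted p = 0.336 from limma) with overlapping groups, so the 2 probes of KLK6 fell on either side of the threshold.

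KLK5, a trypsin-like protease of the outer skin layer that activates other kallikreins, was at −0.90, −0.93 and −0.89 on the shCtrl arrays and at −0.94, −1.0 and −1.05 on the shXBP-1s arrays. Its log2 fold change was −0.09 (SE 0.05, 95% interval −0.21 to 0.03, adjusted p = 0.194 from limma), and the interval leaves room for a fall of 0.21 at most. KLK7, the chymotrypsin-like protease that KLK5 activates in skin, was at −1.90, −1.83 and −1.90 on the shCtrl arrays and at −1.94, −1.82 and −1.73 on the shXBP-1s arrays. These groups overlapped, with a log2 fold change of 0.04 (95% interval −0.11 to 0.20, adjusted p = 0.654 from limma). For both genes the 95% interval excluded a 2-fold change in either direction.

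KLK10, first described as a gene lost in breast cancer cells, overlapped between the groups. Its probe (A_33_P3417650, matched to NM_002776) was at −4.76, −5.11 and −4.50 on the shCtrl arrays and at −4.61, −4.48 and −4.55 on the shXBP-1s arrays, a log2 fold change of 0.24 (95% interval −0.13 to 0.61, adjusted p = 0.265 from limma). KLK12, another trypsin-like member, was at −6.94, −6.77 and −7.00 on the shCtrl arrays, where 2 of 3 were well above background. On the shXBP-1s arrays it was at −6.64, −6.15 and −6.39. The KLK12 groups did not overlap, but with a log2 fold change of 0.51 (SE 0.20, 95% interval 0.04 to 0.98) the adjusted p was 0.0815 from limma. The KLK10 and KLK12 values became −0.68 and −0.86 under normexp with the 75th percentile.

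KLK13 and KLK14, both trypsin-like kallikreins of stratified epithelia, had no measured change. One KLK13 probe (A_24_P333697) was well above background on 0 of 3 shCtrl and 1 of 3 shXBP-1s arrays, and the other (A_24_P416645) on 0 of 6. The KLK14 probe (A_33_P3417640) was above background on 0 of 3 shCtrl and 1 of 3 shXBP-1s arrays. Signals of these 3 probes ran from 1.3 to 11.8 units, and no fold is given for them.

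**Figure D2:**
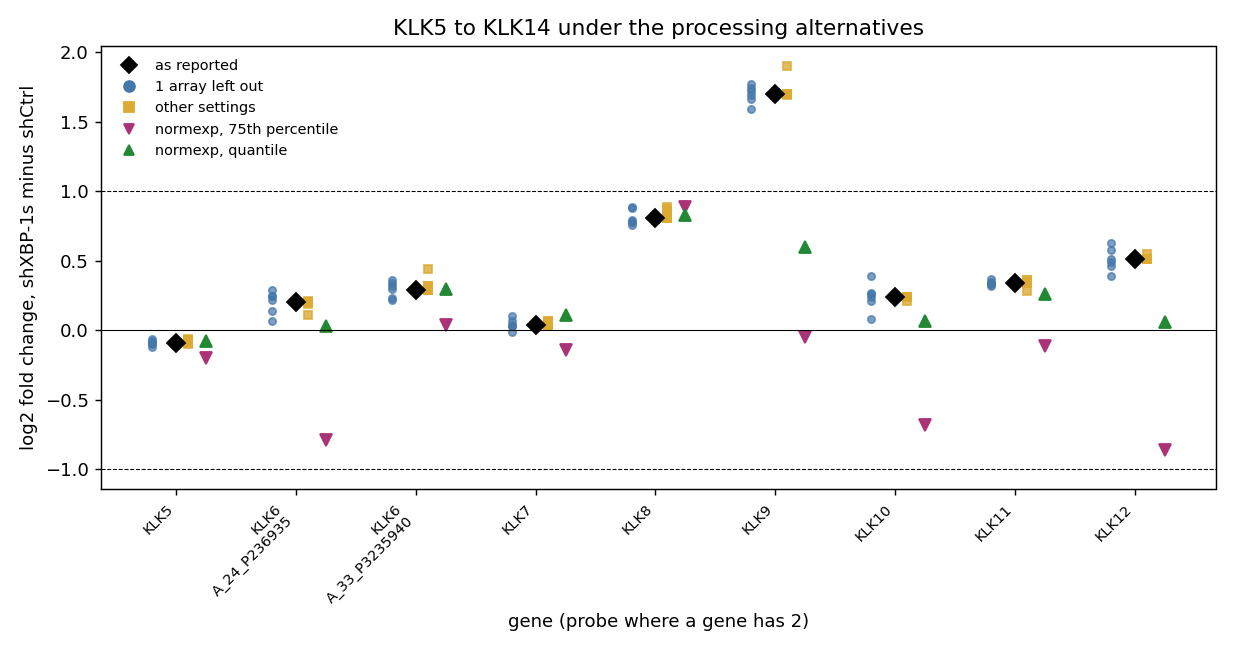
Log2 fold change of shXBP-1s minus shCtrl (vertical axis) for the 9 tested kallikrein probes (horizontal axis) as reported (diamonds), with 1 array left out (circles), under normexp background correction (triangles) and under other settings (squares), with dashed lines at a 2-fold change. KLK8 stayed between 0.76 and 0.89 throughout, whereas KLK9 ran from −0.05 under normexp with the 75th percentile to 1.90 with the slide as a block. In that normexp setting the median of all tested probes was −0.41.

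The kallikrein genes lie in 1 row on chromosome 19, and KLK8 and KLK9 are next to each other between KLK7 and KLK10. The remaining genes of the row, the classical kallikrein KLK1 with KLK2, KLK3, KLK4 and KLK15, are better known from salivary gland, pancreas and prostate. Of these 5 genes 3 were tested and 0 passed by limma at any fold, nor did any reach an unadjusted p below 0.05 by limma or the methods' t-test. Their log2 fold changes were 0.08 for KLK1 (95% interval −0.06 to 0.21), 0.01 for KLK2 (−0.16 to 0.19) and −0.02 for KLK4 (−0.35 to 0.30). Of the 10 protein-coding genes on each side of the kallikreins, 17 were tested, with a median of −0.13. By limma 0 of the 17 were called, and without a minimum fold 0 rose and 3 fell (4 fell at an unadjusted p below 0.05 by limma, with LRRC4B, and 2 by the methods' t-test). Of all tested genes, 18.9% rose and 27.5% fell without a minimum fold. The 3 neighbours that fell so, named after their values were seen, were IGLON5 at −0.35, SIGLEC7 at −0.44 and VSIG10L at −0.30. JOSD2, at 0.98 with an interval of −0.04 to 2.00, became a call with the slide as a block and without shCtrl replicate 2.

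**Figure D3:**
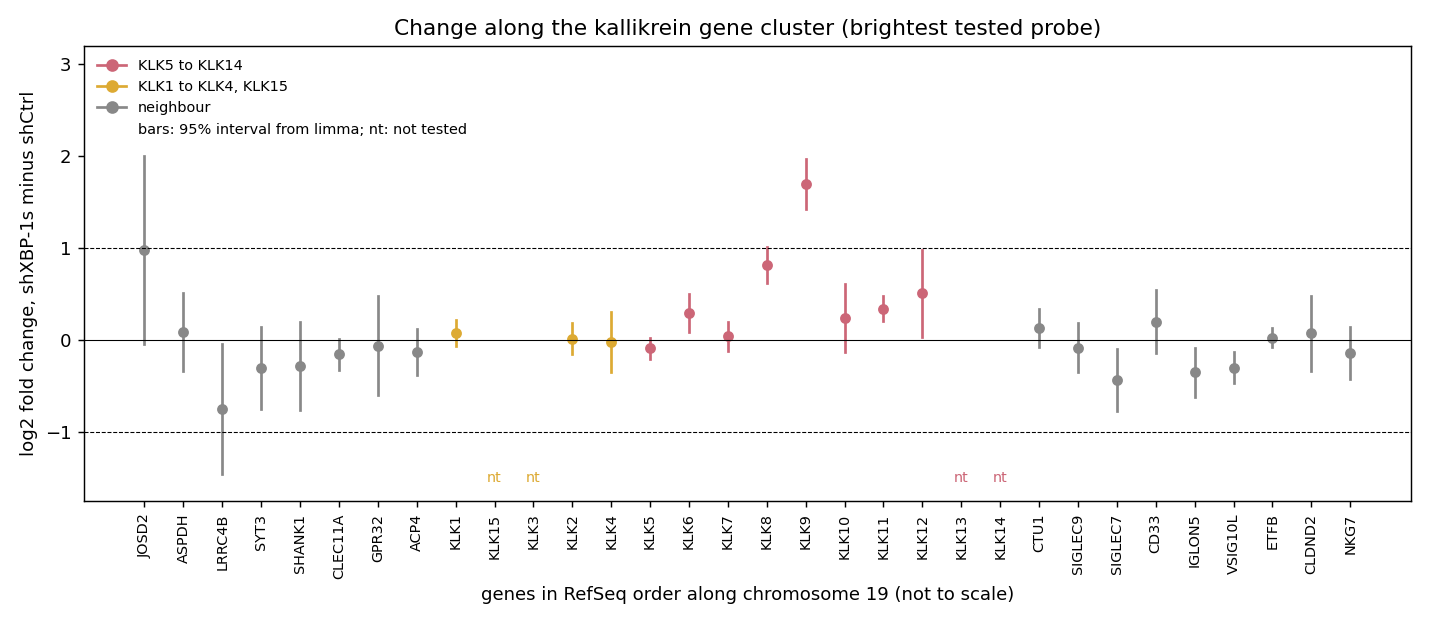
Log2 fold change of shXBP-1s minus shCtrl with its 95% interval from limma (vertical axis) for genes in RefSeq order along chromosome 19 (horizontal axis, not to scale), with KLK5 to KLK14 in red, the 5 other kallikreins in yellow and the neighbouring genes in grey. KLK9 is the only point above the dashed line at 1, and under normexp with the 75th percentile it read −0.05, where the median of all tested probes was −0.41.

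The RefSeq promoter windows of GRCh38.p14, each 300 bases around an annotated start, held 16 windows for 9 of the 10 genes, without an entry for KLK8. They were searched on both strands for 4 short motifs tied to XBP-1s or to epithelial gene control. The unfolded protein response element TGACGTGG was in 1 of the 16 windows, at KLK11, and in 0.729% of all 35116 windows. CCACG, the part of the endoplasmic reticulum stress element that XBP-1s and ATF6 contact, was in 5 of the 16 windows, at KLK10, KLK11, KLK12 and KLK13, and in 38.1% of all windows. The E-box CACGTG (7.26% of all windows) and the AP-1 site TGACTCA (4.95%) were in 0 of the 16. A match is a run of letters and not a measured binding site. The KLK11 window shown here was chosen because it holds the single TGACGTGG match. The other KLK11 window held none of the 4 motifs. The KLK9 window is shown because KLK9 had the largest change of the members. It held none of the 4 motifs, as did every window of KLK5, KLK6, KLK7 and KLK14. KLK11 and KLK9 are on the minus strand and are printed 5′ to 3′ along the gene, KLK11 from chr19:51027597-51027896 and KLK9 from chr19:51009543-51009842. The capitals mark TGACGTGG as it reads on the opposite strand, starting at base 179 of the window and overlapping its CCACG match.
KLK11 promoter window: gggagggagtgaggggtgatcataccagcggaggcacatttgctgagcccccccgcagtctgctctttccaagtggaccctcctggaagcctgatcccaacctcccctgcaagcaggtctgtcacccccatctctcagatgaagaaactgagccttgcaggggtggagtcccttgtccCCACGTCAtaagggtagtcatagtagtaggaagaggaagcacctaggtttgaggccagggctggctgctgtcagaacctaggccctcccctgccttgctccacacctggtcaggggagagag
KLK9 promoter window: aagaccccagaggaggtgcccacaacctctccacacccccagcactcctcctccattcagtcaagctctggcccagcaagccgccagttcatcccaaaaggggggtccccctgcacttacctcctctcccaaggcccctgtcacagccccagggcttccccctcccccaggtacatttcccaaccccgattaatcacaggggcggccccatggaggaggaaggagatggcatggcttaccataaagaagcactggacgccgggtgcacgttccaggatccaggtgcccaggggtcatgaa

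Genes that act with the kallikreins were followed in lists written from general knowledge, but with earlier results of these data known. The counts in these lists are therefore not independent of the data. Over all tested genes, 2.30% were called higher and 2.88% lower, and without a minimum fold 18.9% rose and 27.5% fell. Those shares are the background for the list and marker counts below. Of 14 inhibitors, 8 were tested, with a median log2 fold change of 0.07. Of these, 0 were called higher and 1 lower, and without a minimum fold 2 rose and 2 fell. SERPINA5, the protein C inhibitor and a serpin that blocks several kallikreins, was at −1.16 to −0.98 on the shCtrl arrays and at −2.32 to −2.06 on the shXBP-1s arrays. It fell by 1.07 on the log2 scale (SE 0.08, adjusted p = 3.69e-05 from limma), and by 1.00 without shXBP-1s replicate 3, just under the limit. SPINK5, which encodes LEKTI, the inhibitor of KLK5, KLK7 and KLK14 in skin, rose by 0.29 at its brightest probe (95% interval 0.09 to 0.50, adjusted p = 0.0287 from limma), although that probe read −0.42 under normexp with the 75th percentile. The adjusted p from limma was 0.0808 without shCtrl replicate 2, 0.0884 without shXBP-1s replicate 2, 0.0821 without shXBP-1s replicate 3 and 0.167 in the fit blocked by slide. The other tested SPINK5 probes gave 0.44 and 1.55, and the last was above background on 1 of 3 shCtrl arrays.

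Of 16 proteases that activate kallikreins or similar proenzymes, and inhibitors of those proteases, 14 were tested, with a median of 0.36. By limma 2 were called higher and 1 lower, and 7 rose and 2 fell without a minimum fold, against 18.9% and 27.5% of all tested genes. TMPRSS11D, the airway trypsin-like protease, and TMPRSS11E, or DESC1, are membrane serine proteases of stratified and airway epithelia. Their probes were not well above background on any shCtrl array and were on all 3 shXBP-1s arrays, so the rise is given against a floor. The floor was an array's lowest level for a probe above background, −7.14, −7.14 and −7.32 on shCtrl replicates 1, 2 and 3. Lower shCtrl values were raised to it. The folds so made are not guaranteed minima, since a KLK2 probe above background on 0 of 3 shCtrl arrays reached −6.89. TMPRSS11D ran from −4.50 to −4.22 on the shXBP-1s arrays, 6.87-fold higher by this reckoning. TMPRSS11E ran from −4.19 to −3.94, 8.56-fold higher by the same reckoning. Limma gave them adjusted p of 8.73e-06 and 9.93e-06, which rest on shCtrl values below background, and with all 6 arrays required above background neither was tested. Under normexp with the 75th percentile their log2 fold changes read −0.23 and −0.10. HPN, the membrane protease hepsin, fell by 1.28 on the log2 scale (adjusted p = 6.53e-04 from limma), with 1 of 3 shXBP-1s arrays above background, so its low level is mostly not well measured. The HPN value was −1.09 under normexp with the 75th percentile (adjusted p = 0.451 from limma) and −0.18 under normexp with quantile normalization, neither of them a call. Among the others, named after their values were seen, ST14, which encodes matriptase, rose by 0.28 (adjusted p = 0.00188 from limma). PLAU, the urokinase gene, rose by 0.96 at its brightest probe (adjusted p = 2.93e-05 from limma) and by 1.74 at its other probe. SPINT2, from the inhibitors in this list, fell by 0.68 (adjusted p = 2.22e-05 from limma). PRSS8, at −0.18, did not pass (adjusted p = 0.168 from limma).

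Of 18 genes for substrates and receptors of these proteases, 16 were tested, with a median of 0.37. By limma 2 were called higher and 0 lower, and without a minimum fold 9 rose and 0 fell, against 18.9% and 27.5% of all tested genes. DSG3, a desmosomal cadherin of the lower epithelial layers, was at −0.59 to −0.36 on the shCtrl arrays and at 0.61 to 0.79 on the shXBP-1s arrays, a rise of 1.17 (SE 0.07, adjusted p = 1.32e-05 from limma). IL36G, an epithelial cytokine, rose by 2.07 (SE 0.07, adjusted p = 1.66e-06 from limma), from −3.79 to −3.73 on the shCtrl arrays to −1.79 to −1.58 on the shXBP-1s arrays. Both stayed positive under normexp with the 75th percentile, at 0.92 for DSG3 and 0.77 for IL36G, but below 2-fold. There DSG3 passed the test (adjusted p = 6.86e-17 from limma) and IL36G did not (adjusted p = 0.076 from limma). Under normexp with quantile normalization IL36G was still a call at 1.20, and DSG3 was below 2-fold at 0.96. F2RL1, the gene for PAR2, was outside the naming rule and rose by 0.58 (95% interval 0.42 to 0.74, adjusted p = 3.52e-04 from limma). Of the classical shedding substrates, DSG1 and CDSN did not pass, with DSG1 at 0.67 (95% interval 0.09 to 1.25, adjusted p = 0.0648 from limma) and CDSN at 0.00 (95% interval −0.77 to 0.77).

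**Figure D4:**
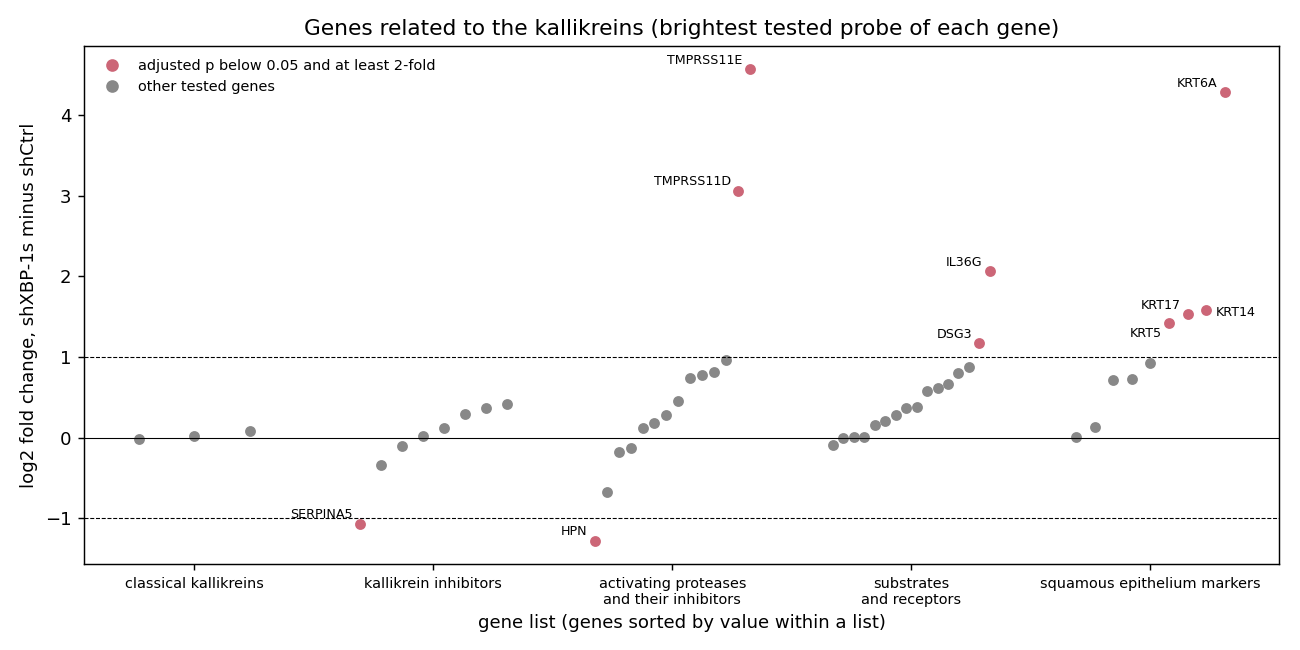
Log2 fold change of shXBP-1s minus shCtrl (vertical axis) for the brightest tested probe of each gene in 5 lists (horizontal axis, sorted within a list), with called genes in red and named. The fitted values of TMPRSS11D and TMPRSS11E rest on shCtrl values below background, and both read below 0 under normexp with the 75th percentile.

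Markers of the cell types were read on the same arrays. All 9 squamous epithelium markers were above background on all 6 arrays, and 4 were called higher, namely KRT5 by 1.43, KRT14 by 1.58, KRT17 by 1.53 and KRT6A by 4.28 on the log2 scale. The summed level of all 9, in multiples of an array's 75th percentile, ran from 101.8 to 108.4 on the shCtrl arrays and from 138.8 to 163.6 on the shXBP-1s arrays. Most of that sum came from SFN, CDH1 and EPCAM, the brightest of the 9, and not from the called keratins. None of these brightest markers was called, and their log2 fold changes were 0.71, 0.13 and 0.01. Without a minimum fold 7 of the 9 rose by limma and 0 fell, against 18.9% and 27.5% of all tested genes. Beside the called keratins these were SFN (adjusted p = 5.73e-04 from limma), KRT16 at 0.72 and TP63 at 0.93. Of 7 fibroblast markers, COL3A1 was above background on 0 arrays. LUM, DCN and PDGFRA were called higher and PDGFRB lower. Without a minimum fold 3 rose and 2 fell, the further fall being COL1A1 at −0.63 (adjusted p = 0.00239 from limma). However, LUM, DCN and PDGFRA read 0.34, −0.32 and −0.84 under normexp with the 75th percentile. None of these was called there or under normexp with quantile normalization. The PDGFRA probe was above background on 1 of 3 shCtrl arrays. Its call was lost in 11 of 18 alternatives, leaving out any single array but shCtrl replicate 1 among them. The summed fibroblast level was 0.9718 to 1.065 on the shCtrl arrays and 0.6713 to 0.6928 on the shXBP-1s arrays, but without PDGFRB it was 0.2794 to 0.2845 and 0.3547 to 0.3958, the opposite order. Of 7 leukocyte markers 0 were called by limma, with 1 higher and 2 lower at an unadjusted p below 0.05 by limma and by the methods' t-test, and the summed level was 4.765 to 6.656 on the shCtrl arrays and 3.561 to 3.856 on the shXBP-1s arrays. Without CD14 that level was 0.8518 to 0.94 on the shCtrl arrays and 0.9518 to 1.092 on the shXBP-1s arrays, so the lower sum came from CD14. The part of these shifts in the kallikrein values was not tested.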

How the data were processed

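Total RNA of 6 CAL-27 samples was read on 1-colour Agilent arrays (shCtrl n = 3, shXBP-1s n = 3). Deposited were each array's Agilent Feature Extraction 11.0.1.1 table, whose spot intensity is background-subtracted and not scaled between arrays, and a table of log2 values with the same median on every array, whose making is not given in the sources used here. Once sorted, the columns of that log2 table differed by 0.1598 at most, so it is close to a quantile-normalized table. The log2 intensity minus its array's 75th percentile over non-control spots was computed, flagged spots (230 to 377 per array) were dropped, and the remaining spots averaged per probe. A probe well above background on every array of either group was tested 2-sided in R 4.3.3 with limma 3.58.1 (lmFit, then eBayes with trend), and p was adjusted by Benjamini-Hochberg over 27624 probes. Accessions gave symbols to 25771 of 34127 probes (RefSeq, GRCh38.p14). The test was checked on simulated data.

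The members and gene lists were chosen with earlier results of these data known. Named genes were every member, XBP1, and up to 5 called genes of each other list with the smallest p, or fixed genes where fewer than 2 were called. As alternatives, background was corrected with normexp, arrays were quantile-normalized, the deposited log2 table was used, the filter on dim probes was changed and flagged spots were kept, along with limma without trend, the methods' t-test, no minimum fold, the replicate number or slide as a block, other choices of a gene's probe, and leaving out each array. Normexp used the median spot signal, since no mean signal column was in the tables used here.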

Additional observations from a re-analysis of the deposited data

How the results depend on the processing

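XBP1, KLK5, the brighter KLK6 probe and KLK8 kept their direction under all 19 alternatives, KLK6 only at 0.04 under normexp with the 75th percentile. Several of the 19 could not change a direction. Limma without trend, the methods' t-test, no minimum fold, the replicate block and the filters on dim probes leave each log2 fold change as it was. Under normexp with the 75th percentile, where the median of all tested probes was −0.41, KLK6 A_24_P236935 read −0.79, KLK7 −0.14, KLK9 −0.05, KLK10 −0.68, KLK11 −0.11, KLK12 −0.86, SPINK5 −0.42, TMPRSS11D −0.23, TMPRSS11E −0.10, DCN −0.32 and PDGFRA −0.84. KLK7 ran from −0.01 to 0.10 with 1 array left out, lowest without shXBP-1s replicate 3. Normexp adds an offset of 50 to signals such as those of KLK9, which lay between 15.5 and 87.4. Why the scaled value changed sign was not tested.

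Under normexp with the 75th percentile, calls numbered 473 over all probes (159 higher, 314 lower, against 632 and 722), 0 among KLK5 to KLK14, 1 among the activating proteases and 0 among the substrates. That 1, also under normexp with quantile normalization, was PLAU, and the TMPRSS11D, TMPRSS11E and HPN calls were lost. Under normexp with quantile normalization they numbered 363 (186 higher, 177 lower), 0, 1 and 1, and 0 among the inhibitors. With no minimum fold they were 11516 over all probes, 4 for KLK5 to KLK14, 4 inhibitors, 9 activating proteases, 9 substrates and 3 neighbours. Requiring all 6 arrays above background left 0 activating proteases called, and taking any probe gave 2 inhibitors. With the slide as a block 1 neighbour was called. Leaving out 1 array gave 0 to 1 neighbours, 0 to 1 inhibitors and 1275 to 1750 calls over all probes, the most without shCtrl replicate 1. The KLK9 call held in each of those, at 1.59 to 1.77.

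Same-numbered samples did not deviate together (correlations −0.02, 0.12 and −0.12), so the numbers were not taken as pairing. With a replicate block, 1381 probes were called against 1354 and KLK9 stayed at 1.70.

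Low signal limits KLK9, KLK10, KLK12, KLK13, KLK14 and the dimmer KLK6 probe, and 3 arrays per group limit all.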

Other observations

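Other loci of similar name showed no call. KLKP1, a kallikrein pseudogene of the same chromosomal row, had a log2 fold change of 0.08 (95% interval −0.26 to 0.42, adjusted p = 0.688 from limma). KLKB1, the plasma kallikrein gene, which is not a member of that row, had 0.03 (95% interval −0.22 to 0.28, adjusted p = 0.846 from limma).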
